A study of Mus musculus with 8 samples.

Results

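The 300 genes described here are those whose signal differed most among 4 mammary tumours of a single genotype, MMTV-PyVT/HdhQ111/Q111. They were chosen from 9407 ranked genes by the standard deviation (SD) of the log2 signal over these 4 tumours. A gene was ranked if it had a row with a single gene symbol and a mean log2 signal of at least 7, and where several such rows named a gene the row with the highest mean stood for it. The SD that chose the genes comes from the tumours that are described, so every value below is a description, no test was made on it and no p-value is given. MMTV-PyVT mice carry the middle T oncogene of polyoma virus under the MMTV promoter, which is active in mammary epithelium, and in HdhQ111/Q111 mice both copies of the huntingtin gene encode a protein with 111 glutamines. The mice were of mixed FVB/CD1 background and their tumours received no treatment. Each tumour was taken at a set time after it was detected and snap-frozen, and its total RNA was hybridized to 1 Affymetrix Mouse Exon 1.0 ST array, which carries probes along the exons of each gene. The series holds 8 arrays, and the 4 arrays of the other genotype were not compared here. The sources used here do not say if the 4 tumours grew in 4 mice or fewer, in which glands, or at what age, so that the spread between them may be spread between mice, between tumours of a mouse, or technical. The tumours are called tumours 1 to 4 after their replicate numbers, which carry no order. With 4 arrays an SD is itself known only roughly.

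The mammary gland is a bilayered epithelium set in fat. Luminal cells line its ducts and, when they differentiate into alveolar cells, make milk proteins. Basal or myoepithelial cells surround them, contract, and express both keratins of the basal layer and smooth muscle proteins. Around the epithelium lie adipocytes, fibroblasts, vessels and macrophages, and under the skin of the mouse thin sheets of skeletal muscle run close to the glands. A piece of a whole tumour can hold any of these cells, and its RNA is a mixture of theirs. In such bulk samples a change in the number of cells of a type and a change in the RNA per cell cannot be told apart.

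The table gave 23332 rows for each array, of which 14996 carried a single symbol, for 14860 genes, and 5453 genes fell below the minimum signal. All 4 tumours carried high signals of mammary luminal epithelium. Epcam, an epithelial adhesion protein, lay between 12.61 and 12.75, the E-cadherin gene Cdh1 between 12.28 and 12.40, and Elf5, the transcription factor of alveolar cells, between 12.21 and 12.61. Htt, the gene that carries the knock-in, read 8.92, 8.79, 8.89 and 8.65 in tumours 1 to 4 and stood at rank 5193, but the array does not read the length of the glutamine tract. Array medians lay between 7.61 and 7.74, the largest difference being 0.123, and the values were used as deposited.

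For the 300 genes the median SD was 0.655, against 0.134 for all ranked genes, whose quartiles were 0.0867 and 0.209. The median range between the highest and lowest tumour corresponded to 2.81-fold for the 300 and to 1.23-fold for all ranked genes. The SD of the 300 lay between 0.499 and 3.05, with 61 genes above 1 and 8 above 2, and they held 45.9% of the summed variance of all ranked genes. By construction the 300 made up 3.19% of the ranked genes, which is the background against which the counts below are read. They were dimmer, with a median signal of 8.26 against 9.13 for all ranked genes, and 39.7% of them had a mean below 8 against 19.4% of all ranked genes. The last gene inside was Stc1, which encodes the secreted stanniocalcin 1 (SD 0.49947), and the first outside was Nr4a2, an orphan nuclear receptor (SD 0.49905). Nothing separates the genes on either side of that rank.

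**Figure D1:**
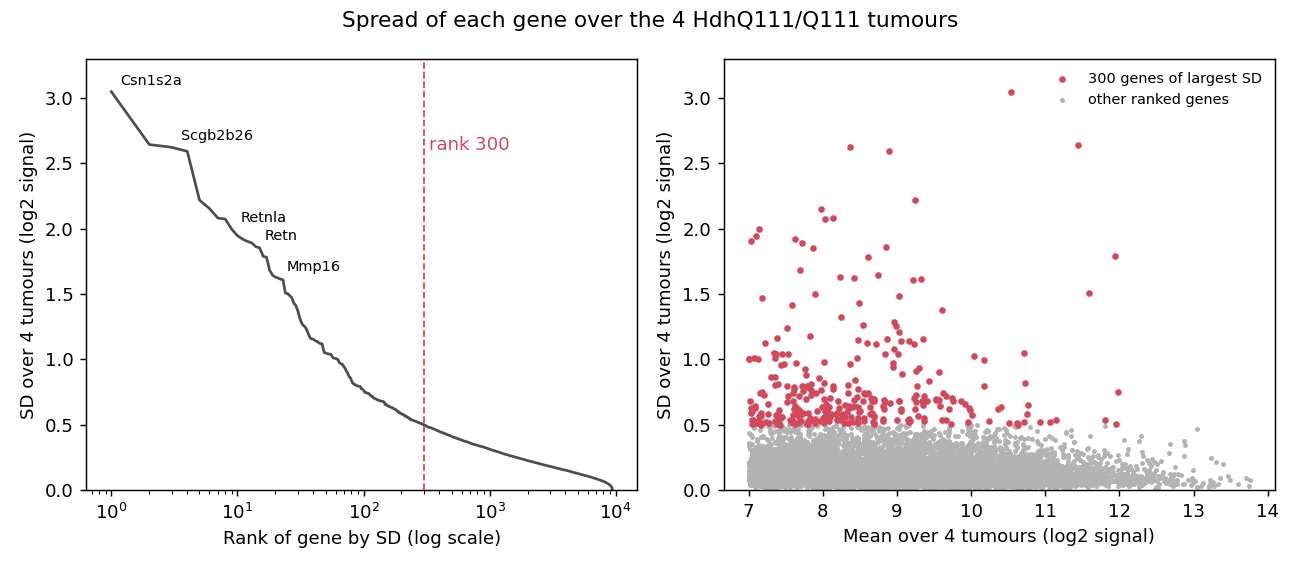
Left, the SD over the 4 tumours (log2 signal) of each ranked gene against its rank on a log axis, with a dashed line at rank 300. Right, the same SD against the mean log2 signal, with the 300 genes in red and all other ranked genes in grey. The curve falls steeply over the first genes and passes rank 300 without a step, at an SD of 0.499.

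The 20 genes of largest SD were nearly all genes of milk, muscle or fat. They held 2 caseins, 10 genes of the skeletal muscle list, the muscle gene Mybpc2 and 4 genes of the adipocyte list. The other 3 were Scgb2b26, a secretoglobin, Retnla, a secreted product of macrophages activated by type 2 cytokines, and Muc4, a membrane mucin. Scgb2b26 read 11.55, 8.24, 8.56 and 5.14 in tumours 1 to 4, an 85.2-fold range and the widest of the 20. It was high in tumour 1 and low in tumour 4. This gene belongs to a family of close copies, so its probes may also read relatives. Muc4 read 6.72, 6.09, 7.71 and 10.38 and stood out only in tumour 4. Retnla read 9.18, 4.52, 6.82 and 8.04, with tumour 2 far below the others.

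**Figure D2:**
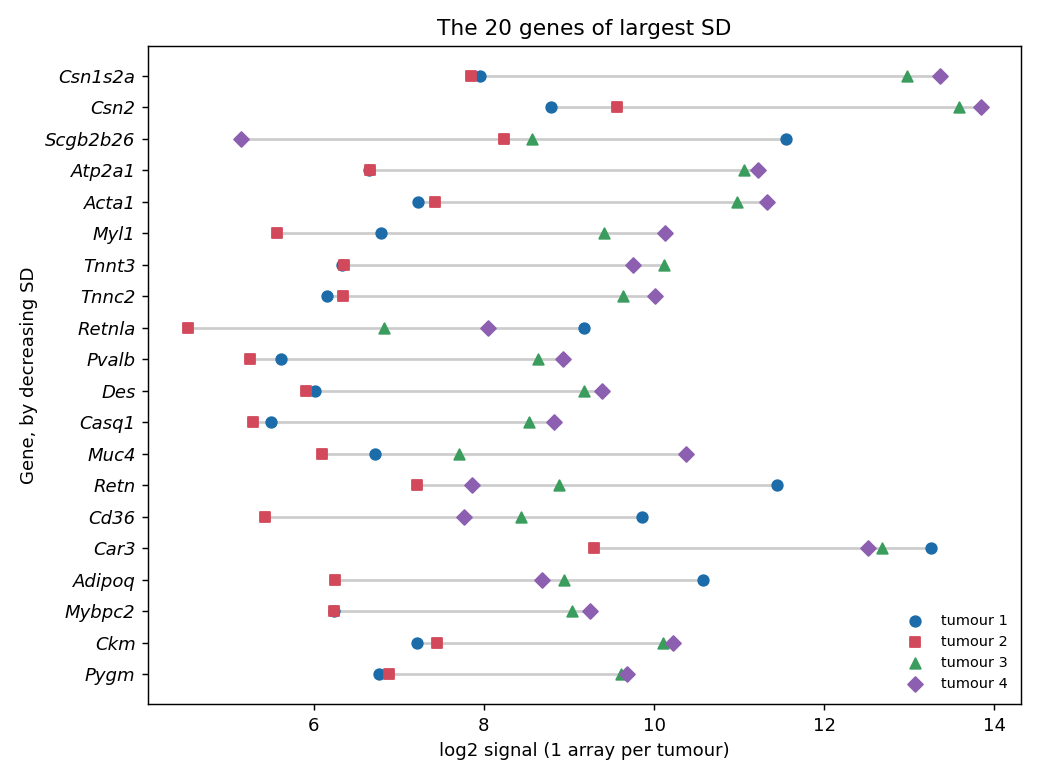
The log2 signal of the 20 genes of largest SD (rows, by decreasing SD) in each tumour, 1 symbol per array, with a grey line from the lowest to the highest tumour. Tumours 3 and 4 lie together at the right and tumours 1 and 2 together at the left for the caseins and the muscle genes, whereas for Retn, Cd36, Car3 and Adipoq tumour 1 is highest and tumour 2 lowest.

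To describe which tumours carried the variation, each gene was split at the largest gap between its 4 sorted values. The most frequent split set tumours 3 and 4 above tumours 1 and 2, for 58 of the 300 genes (19.3%, against 16.9% of all ranked genes). In 50 genes (16.7%, against 14.1%) tumour 2 lay below the other 3, in 37 (12.3%, against 7.28%) tumour 2 lay above them, and in 36 (12.0%, against 5.33%) tumour 1 did. Tumour 4 stood above the others in 29 genes (9.67%, against 8.51%) and below them in 25 (8.33%, against 9.1%). Tumour 3 stood alone least often. It was above the others in 8 genes (2.67%, against 12.4%) and below them in 2 (0.667%, against 4.08%). Tumour 1 was below the others in 15 genes (5.0%, against 6.85%). Splits into other pairs were rare. Tumours 2 and 4 were on top in 10 genes (3.33%, against 2.6%), tumours 1 and 2 in 9 (3.0%, against 3.76%), tumours 2 and 3 in 9 (3.0%, against 2.85%), tumours 1 and 3 in 6 (2.0%, against 3.91%) and tumours 1 and 4 in 6 (2.0%, against 2.33%). A tumour far from the other 3, by a gap past Dixon's 95% limit for 4 values, was found in 17 of the 300 genes (5.67%, against 4.34%). With each array centred on its median 272 of the 300 genes kept their split. After centring 50 of the 300 had tumours 3 and 4 on top (16.7%, against 9.91% of all ranked genes), 47 had tumour 2 below the others (15.7%, against 10.8%) and 7 had tumour 3 above them (2.33%, against 5.51%), so the shares of all ranked genes depended more on the scaling than those of the 300.

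Tumours 3 and 4 were the most alike. The SD of their difference over all ranked genes was 0.249, and 62 genes differed more than 2-fold between them. Tumours 2 and 4 were the least alike, with an SD of 0.387 and 211 such genes. The other pairs lay between, with 100 to 174 genes over 2-fold. Among the 300 genes, tumour 2 held the lowest signal most often, in 129, and tumour 4 the highest most often, in 98. Over all ranked genes these shares were 38.5% and 27.6%. With each array centred, tumour 2 was lowest in 125 of the 300 (41.7%, against 27.7% of all ranked genes). Tumour 4 was then highest in 100 (33.3%, against 28.2%). How far tumour 2 stood from the background thus depended on the scaling. Tumour 2 was also the tumour farthest from the mean in 119 of the 300, against 83 for tumour 4, 72 for tumour 1 and 26 for tumour 3. This count was not made over all ranked genes. Over these the SD of the deviations from each gene's mean was likewise largest in tumour 2 (0.227) and smallest in tumour 3 (0.168).

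**Figure D3:**
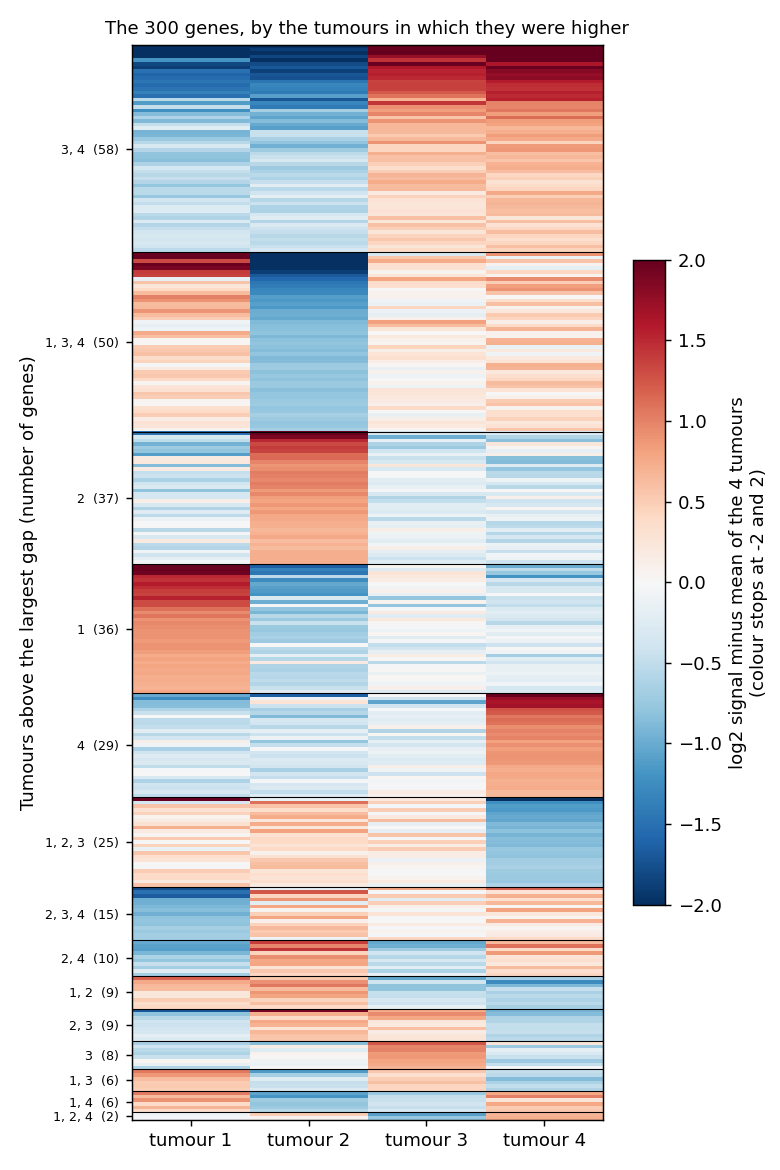
Deviation of each of the 300 genes (rows) from its mean over the 4 tumours (columns), in log2 units on a colour scale that stops at -2 and 2. Rows are grouped by the tumours that lie above the largest gap of the gene, with the number of genes in each group, and the largest group, with 58 genes, has tumours 3 and 4 above tumours 1 and 2.

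To ask which cell types and processes the 300 genes stand for, 34 gene lists were set beside them. Of 858 genes in the lists 685 were measured and 481 ranked, and 97 of the 300 were in a list, while 203 were in none. The lists with the highest shares among those with at least 5 ranked members were skeletal muscle (16 of 16 ranked members), adipocytes (14 of 18), acute phase and innate defence secretions (7 of 13), matrix metalloproteinases and their inhibitors (4 of 8), milk proteins and alveolar cells (7 of 15), chemokines and cytokines (6 of 13) and basal and myoepithelial cells (6 of 14). Shares were lower but still above 3.19% for complement (2 of 7), pericytes and smooth muscle (3 of 11), hormone-sensing luminal cells (2 of 8), Wnt, TGF-beta and FGF signals (6 of 25), fibroblasts (3 of 16), matrix (4 of 23), interferon-stimulated genes (5 of 29), dendritic cells and MHC class II (1 of 6), macrophages (3 of 19), heat shock (3 of 21), xenobiotic metabolism (2 of 14), endothelial cells (2 of 17) and hypoxia (2 of 24). Luminal keratins and epithelial junctions (1 of 17), immediate early genes (1 of 24) and the cell cycle (2 of 49) lay near 3.19%. Cholesterol synthesis (0 of 17), fatty acid synthesis (0 of 19) and the mitochondrial respiratory chain (0 of 25) had no member among the 300, but at these sizes few would be found at 3.19%. Their median SDs were 0.324, 0.262 and 0.145, so that genes of cholesterol and fatty acid synthesis varied more than the median ranked gene. The median SD of ranked members was 1.77 for skeletal muscle, 1.10 for adipocytes and 0.105 for the luminal list, against 0.134 for all ranked genes.

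**Figure D4:**
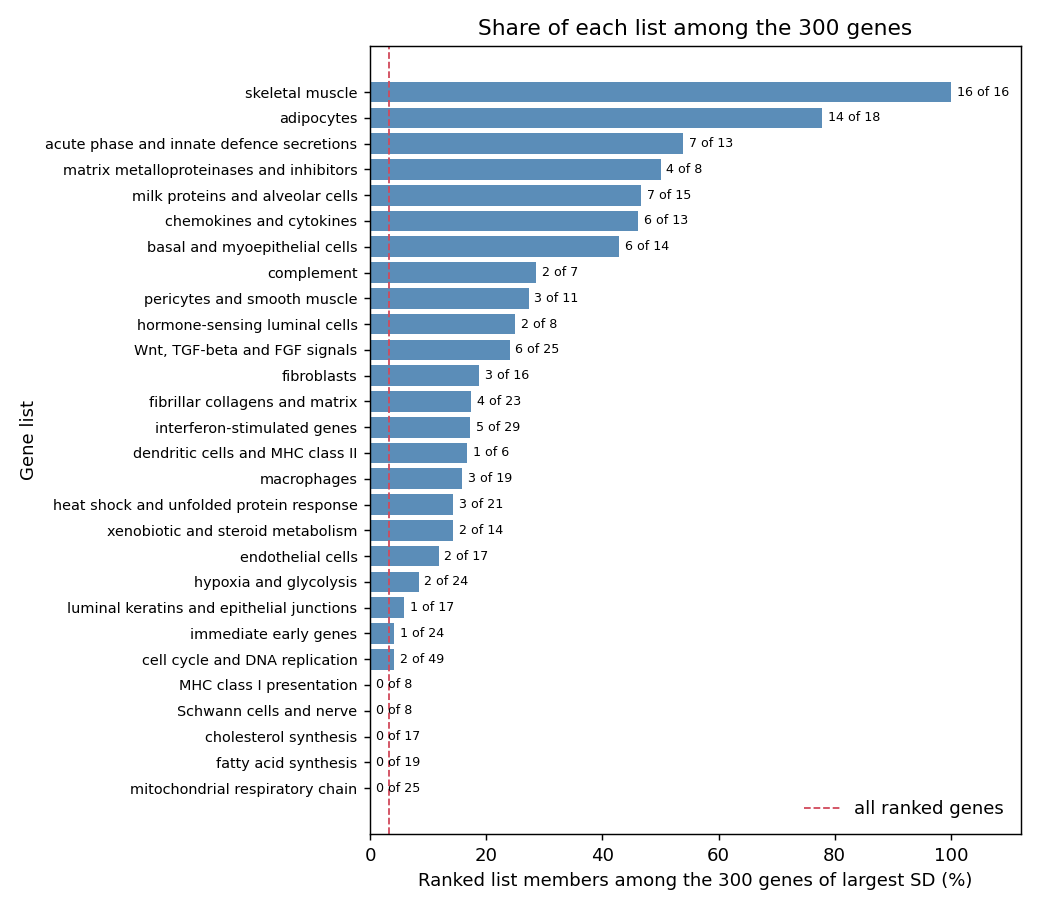
For each list with at least 5 ranked members, the percent of its ranked members that are among the 300 genes, with the counts beside each bar. The dashed line marks the share of all ranked genes, 3.19%, and the bars of skeletal muscle (16 of 16) and adipocytes (14 of 18) reach furthest beyond it.

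Skeletal muscle genes were the most numerous listed group, and all 16 were high in tumours 3 and 4. The list has 23 measured members, and the 16 with a mean of at least 7 were all among the 300. Since dim members pass that minimum only through the tumours in which they are high, the 7 members below it were examined too. Among genes of the contractile apparatus, Acta1, the skeletal muscle actin, read 7.23 and 7.42 in tumours 1 and 2 and 10.98 and 11.33 in tumours 3 and 4, a 17.2-fold range. Myl1, a myosin light chain, read 6.79, 5.57, 9.41 and 10.13 in tumours 1 to 4. Tnnt3, the fast skeletal troponin T, read 6.33, 6.36, 10.12 and 9.76. In each of these genes tumours 1 and 2 were low, tumours 3 and 4 high and the gap between them wider than the difference within either pair. Tnnc2, the fast troponin C, read 6.15, 6.34, 9.63 and 10.01, and Actn3, the alpha-actinin of fast fibres, 6.46, 6.27, 9.01 and 8.57. Mybpc2, the fast myosin-binding protein C, was not in the list but had the same pattern, at 6.23, 6.23, 9.03 and 9.25.

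The promoter of Acta1 is shown because it holds the CArG box, the site of serum response factor known from muscle genes, which is set in capitals (chr8:123894726-123895025, minus strand, GRCm38.p6, RefSeq). The 300 bases run from 250 before to 50 after the start of the gene, as do all promoters below.
Acta1: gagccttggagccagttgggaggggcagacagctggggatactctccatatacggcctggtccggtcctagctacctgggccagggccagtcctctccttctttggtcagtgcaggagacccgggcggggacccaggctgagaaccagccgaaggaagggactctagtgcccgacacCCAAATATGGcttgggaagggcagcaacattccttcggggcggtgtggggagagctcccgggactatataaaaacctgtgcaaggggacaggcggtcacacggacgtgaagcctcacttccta
The box began 73 bases upstream of the gene's start. Promoters were found for 220 of the 300 genes, and 7 of these (3.18%) held the CArG box on either strand, against 1.63% of all 32851 promoters. Of 12 muscle members among the 300 with a promoter, Acta1 alone held it, and none of the 12 held a MEF2 box, which 0.557% of all promoters held. A match describes the letters of the sequence and is no evidence of binding.

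The calcium-handling and metabolic genes of fast muscle followed the same pattern. Atp2a1, the calcium pump of the sarcoplasmic reticulum, read 6.64 and 6.66 in tumours 1 and 2 and 11.06 and 11.22 in tumours 3 and 4, a 23.8-fold range and the fourth largest SD of all. Casq1, the calcium store protein calsequestrin, read 5.49, 5.29, 8.52 and 8.83 in tumours 1 to 4, and Pvalb, the calcium buffer parvalbumin, 5.61, 5.24, 8.63 and 8.93. Ckm, muscle creatine kinase, read 7.21, 7.45, 10.11 and 10.23, and Pygm, muscle glycogen phosphorylase, 6.77, 6.89, 9.61 and 9.68. Des, the intermediate filament desmin, which smooth muscle also makes, read 6.01, 5.91, 9.17 and 9.38. Over the 16 members the mean deviation from each gene's mean was -1.38 and -1.47 in tumours 1 and 2 and 1.37 and 1.49 in tumours 3 and 4, and the summed linear signal was 1816 and 1774 in tumours 1 and 2 against 13382 and 15122 in tumours 3 and 4. Tumours 3 and 4 lay above tumours 1 and 2 in 16 of 16 members, with and without centring of the arrays, whereas this order held for 38.6% of all ranked genes and for 24.2% after centring. In 5 of the 7 dim members it held as well, among them Myot, a protein of the Z-disc, at 5.24, 5.26, 7.79 and 8.06. The exceptions were Tnni1 and Tnnc1, troponin subunits of slow fibres, at 5.77 to 5.98 and 4.68 to 4.97 over the 4 tumours. Genes of the same split outside the list, chosen after their values were seen, included Tpm2, a tropomyosin, Ldb3, a Z-disc protein, Mlip, a lamin-interacting protein of muscle, and Hspb6, a small heat shock protein of muscle.

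Milk protein genes held the largest SD of all, and in 3 caseins tumours 3 and 4 were again high. Caseins are the main milk proteins, and their genes lie close together on chromosome 5. Csn1s2a, an alpha-S2 casein, read 7.95 and 7.85 in tumours 1 and 2 and 12.98 and 13.36 in tumours 3 and 4, a 45.6-fold range. Csn2, beta-casein, read 8.79, 9.57, 13.59 and 13.84 in tumours 1 to 4, a 33.3-fold range. Csn1s1, alpha-S1 casein, read 10.10, 10.49, 12.67 and 13.08, a 7.91-fold range. In all 3 the tumours fell into the same pairs, and the value of Csn2 in tumour 4 was the highest of any row on that array. The highest signal on the arrays lay between 13.76 and 13.84, so a larger difference may not have been readable at that end. Whether signals were saturated there was not tested.

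The promoters of these 3 caseins are shown because each holds the letters TTCNNNGAA, the palindromic site bound by STAT proteins, of which STAT5 is known to carry the prolactin signal to milk genes. Matches are in capitals (GRCm38.p6, RefSeq). Csn2 lies at chr5:87699376-87699675 on the minus strand, Csn1s1 at chr5:87665958-87666257 on the plus strand and Csn1s2a at chr5:87774200-87774499 on the plus strand.
Csn2: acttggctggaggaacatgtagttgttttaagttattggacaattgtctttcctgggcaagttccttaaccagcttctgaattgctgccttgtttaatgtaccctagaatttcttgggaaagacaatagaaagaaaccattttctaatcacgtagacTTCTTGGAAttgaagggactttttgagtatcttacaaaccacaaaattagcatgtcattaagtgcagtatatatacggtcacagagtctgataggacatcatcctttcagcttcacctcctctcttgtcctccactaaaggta
Csn1s1: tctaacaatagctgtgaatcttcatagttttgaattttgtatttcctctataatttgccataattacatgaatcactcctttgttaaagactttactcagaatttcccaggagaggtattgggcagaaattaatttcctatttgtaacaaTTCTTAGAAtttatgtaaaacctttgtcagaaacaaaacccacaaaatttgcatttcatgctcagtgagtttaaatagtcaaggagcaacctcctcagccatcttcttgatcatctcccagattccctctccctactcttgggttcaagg
Csn1s2a: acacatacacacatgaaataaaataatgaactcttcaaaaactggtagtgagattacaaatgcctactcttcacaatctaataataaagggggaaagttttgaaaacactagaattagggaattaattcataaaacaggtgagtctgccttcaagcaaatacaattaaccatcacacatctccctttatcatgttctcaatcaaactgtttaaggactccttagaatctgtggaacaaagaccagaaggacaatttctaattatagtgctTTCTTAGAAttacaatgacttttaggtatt
The match began 93 bases upstream of the start in Csn2, 100 bases upstream in Csn1s1 and 20 bases downstream in Csn1s2a. Of 6 milk list members among the 300 with a promoter, 3 held it, and of 11 measured members with a promoter, the same 3. It was in 20 of the 220 promoters of the 300 genes (9.09%) and in 8.30% of all promoters. The search for this motif and for the CArG box was chosen after it was seen which genes varied.

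Other genes of the secretory cell varied less. Cel, a lipase secreted into milk, read 7.94, 6.77, 9.18 and 10.04 in tumours 1 to 4, Lao1, an amino acid oxidase of milk, 8.39, 7.46, 9.78 and 9.85, and Btn1a1, the butyrophilin of the milk fat globule, 9.82, 10.28, 11.25 and 11.56. These too had tumours 3 and 4 on top. Ltf, the iron-binding lactoferrin, read 12.02, 11.28, 12.00 and 12.50 and was lowest in tumour 2. By contrast Csn3, kappa-casein, read 12.80, 12.52, 12.64 and 12.75. The milk protein gene Lalba read 13.23, 12.35, 13.25 and 13.37, with tumour 2 alone low. The transferrin gene Trf lay between 13.57 and 13.78, near the top of the arrays, where differences may be hard to read. Elf5 and the mucin gene Muc15 had SDs of 0.21 and 0.19. The casein genes therefore did not move as a block, since Csn3 differed little while Csn1s1, Csn2 and Csn1s2a differed 7.91-fold to 45.6-fold. A further casein gene, Csn1s2b, was below the minimum, at 4.39 to 4.94. Tumours 3 and 4 lay above tumours 1 and 2 in 11 of the 15 ranked members, or 9 with centred arrays. This order held for 38.6% and 24.2% of all ranked genes. Tumour 4 was highest in 13, or 12 with centred arrays, against 27.6% and 28.2% of all ranked genes. The mean deviation over the 15 was -0.61 and -0.77 in tumours 1 and 2 and 0.54 and 0.83 in tumours 3 and 4. Over the 8 ranked members outside the 300 the same means were only -0.07, -0.20, 0.04 and 0.24.

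Muscle genes and most ranked milk genes thus shared the same pairs of tumours, and the part of one in the values of the other was not tested. Genes of cell division had the same pairs at a much smaller size. Of 49 ranked cell cycle genes 2 were among the 300, Ccne2, the cyclin E2 of entry into S phase (7.05, 7.31, 8.55 and 8.43 in tumours 1 to 4), and Cdc6, which loads the replicative helicase (6.64, 6.70, 7.59 and 7.53). Tumours 3 and 4 nevertheless lay above tumours 1 and 2 in 47 of the 49, and in 43 with each array centred, against 38.6% and 24.2% of all ranked genes. Mki67, the proliferation marker Ki-67, read 8.35, 8.13, 9.01 and 8.76, and Top2a, topoisomerase II alpha, 9.66, 9.57, 10.38 and 10.38. The mean deviation over the list was -0.33 and -0.27 in tumours 1 and 2 and 0.35 and 0.24 in tumours 3 and 4. Ccnd1, a cyclin D, did not follow, reading 12.15, 12.28, 12.14 and 11.91, nor did Ccnd2, reading 9.49, 8.86, 9.09 and 9.14. Among genes of this split outside the lists, Tk1, thymidine kinase, Pclaf, a partner of the replication clamp, and Sgo1, which guards chromosome cohesion, also belong to dividing cells. The cell cycle homology region, the letters TTTGAA on either strand, was in 21 of 40 cell cycle promoters and in 16.8% of those of the 300 genes, against 17.9% of all promoters.

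Adipocyte genes gave the next large group and another order of the tumours. All 18 ranked members were highest in tumour 1, against 16.7% of all ranked genes, and 17 were lowest in tumour 2, against 38.5%. With centred arrays the counts were the same, and the shares of all ranked genes were 24.1% and 27.7%. Adipoq, the fat cell hormone adiponectin, read 10.57, 6.25, 8.95 and 8.68 in tumours 1 to 4, a 19.9-fold range. Retn, resistin, read 11.45, 7.22, 8.89 and 7.86. Lep, leptin, had a mean below the minimum but the same extremes, at 7.86, 4.63, 6.94 and 5.17. In these hormone genes tumour 1 stood at the top, tumour 2 at the bottom, and tumours 3 and 4 in between. Genes of fatty acid uptake and storage moved likewise. Cd36, a fatty acid transporter, read 9.86, 5.42, 8.43 and 7.77, Lpl, lipoprotein lipase, 10.35, 7.32, 9.24 and 9.06, and Fabp4, the fatty acid binding protein of fat cells, 9.13, 5.74, 7.44 and 6.42. Cidec, which enlarges lipid droplets, read 11.23, 7.32, 9.63 and 9.13, and Plin1, the coat protein of the droplet, 10.25, 7.97, 9.02 and 8.55. Car3, carbonic anhydrase 3, which both fat and muscle make, read 13.25, 9.30, 12.69 and 12.51, with tumour 2 alone far below the rest. Pparg, the master transcription factor of fat cells, read 8.90, 7.03, 7.75 and 7.50.

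Over the 18 ranked adipocyte genes the mean deviation was 1.31 in tumour 1, -1.25 in tumour 2, 0.16 in tumour 3 and -0.22 in tumour 4, and 1.35, -1.20, 0.09 and -0.24 with centred arrays. The summed linear signal was 30974 in tumour 1, 5611 in tumour 2, 16305 in tumour 3 and 13578 in tumour 4. The 4 ranked members outside the 300 had the same order at a smaller size, with means of 0.40, -0.33, 0.01 and -0.09. Ucp1 and Cidea, markers of brown fat, were dim, at 5.05 to 5.50 and 5.25 to 5.64. Genes outside the list with tumour 1 on top, chosen after their values were seen, included Aqp7, the glycerol channel of fat cells (8.78, 6.20, 7.22 and 6.67), Abcd2, a peroxisomal transporter (8.73, 6.21, 7.43 and 7.03), the caveolar genes Cav1 (10.49, 8.82, 9.54 and 9.39) and Cavin1, and Pde3b, which relays insulin's block of lipolysis. Of the 36 genes with tumour 1 above the others, 11 were in a list.

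**Figure D5:**
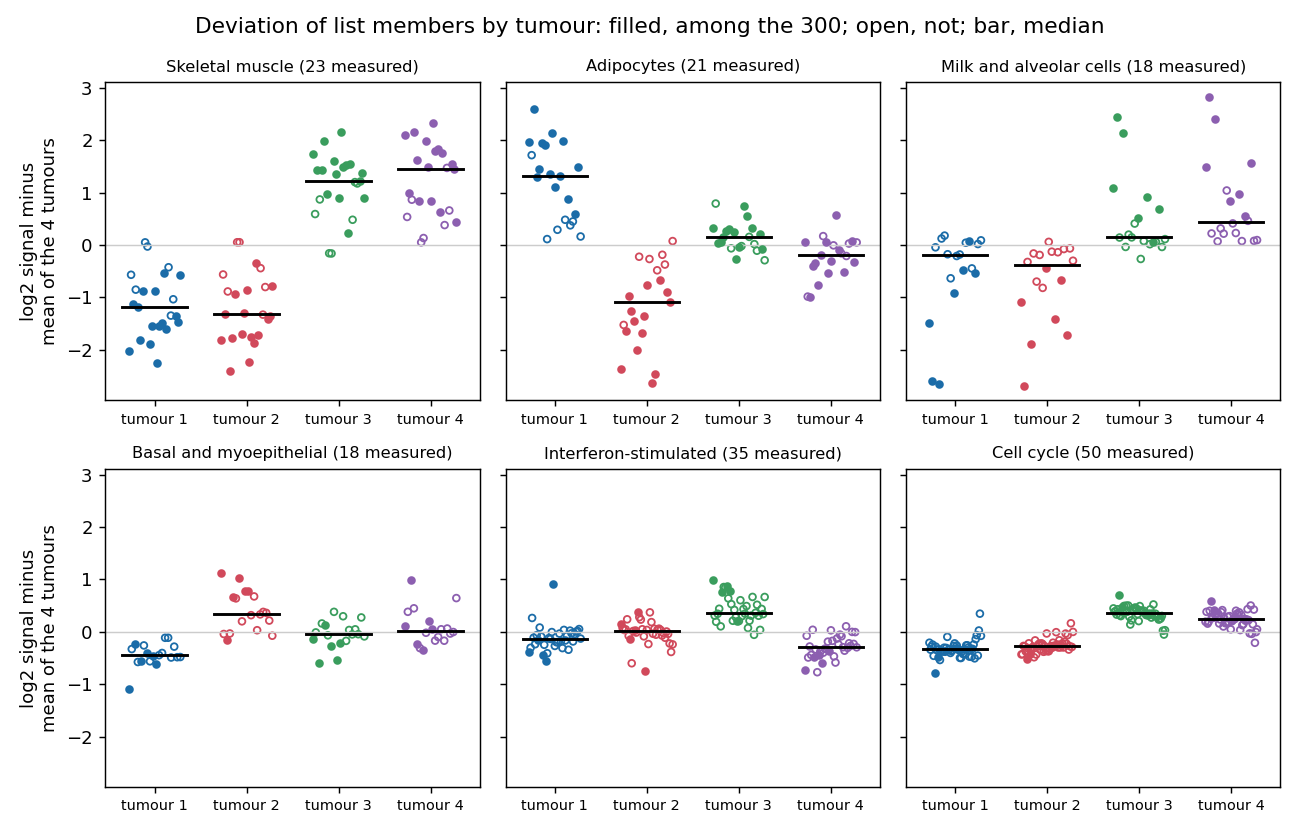
Deviation of each measured member of 6 lists from its mean over the 4 tumours (log2 signal), by tumour, with filled points for members among the 300, open points for all other members and a bar at the median of all measured members. By these medians, tumours 3 and 4 lie above tumours 1 and 2 for skeletal muscle, milk and cell cycle genes. Adipocyte genes are highest in tumour 1 and lowest in tumour 2, basal genes are highest in tumour 2, and interferon-stimulated genes are highest in tumour 3.

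The 3 fibroblast genes among the 300, Dpt, Gsn and Dpep1, and the matrix gene Ogn had the extremes of the adipocyte genes. Dpt, the matrix protein dermatopontin, read 11.00, 7.72, 9.68 and 10.01 in tumours 1 to 4. Ogn, the small proteoglycan osteoglycin, read 8.36, 6.24, 7.44 and 7.36. Gsn, the actin-severing protein gelsolin, read 10.10, 8.80, 9.41 and 9.17, and Dpep1, a dipeptidase, 8.26, 7.13, 7.68 and 7.21. All 4 were highest in tumour 1 and lowest in tumour 2, as the adipocyte genes were, and the part of fat in these values was not tested. The rest of the fibroblast list followed this only in part. Of 16 ranked members 8 were highest in tumour 1 and 8 in tumour 4, against 16.7% and 27.6% of all ranked genes. With centred arrays these were 9 and 6, against 24.1% and 28.2%. Tumour 2 was lowest in 9 of the 16, or 8 with centred arrays, against 38.5% and 27.7%. Of the 13 outside the 300, 5 were highest in tumour 1 and 8 in tumour 4, and 6 were lowest in tumour 2. The receptor genes Pdgfra and Pdgfrb had SDs of 0.24 and 0.14, against the median of 0.134 for all ranked genes. Fap, another fibroblast marker, was below the minimum, at 5.64 to 6.37.

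Matrix genes showed a second pattern, with tumour 4 on top. Tnc, tenascin C, a matrix protein of remodelled stroma, read 8.94, 8.91, 9.57 and 10.85 in tumours 1 to 4, and Col12a1, a collagen that binds fibrils, 9.05, 9.68, 9.54 and 10.54. Aspn, asporin, read 7.61, 6.91, 7.67 and 8.34. The main fibrillar collagens had the same highest tumour but a far smaller spread. Col1a1 read 9.79, 9.71, 9.88 and 10.27, Col1a2 9.54, 9.52, 9.62 and 10.08, and Col3a1 9.61, 9.06, 9.46 and 9.92. Over 23 ranked matrix genes tumour 4 was highest in 15, and in 14 with centred arrays, and the mean deviation was -0.01, -0.23, -0.05 and 0.29. Tumour 4 was the highest for 27.6% of all ranked genes, and for 28.2% after centring.

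Among the proteases of the matrix, Mmp16, a membrane-bound metalloproteinase, had an SD of 1.62 and rank 21. It read 6.73, 10.32, 9.17 and 7.49 in tumours 1 to 4, a 12.1-fold range, with tumours 2 and 3 on top. No other member of its list came near this. Timp3, a tissue inhibitor of these enzymes, read 10.08, 11.32, 10.57 and 10.53 and was highest in tumour 2. Mmp12, the macrophage elastase, read 7.13, 6.49, 7.08 and 7.87, and Mmp19 7.66, 6.67, 7.31 and 7.98, both lowest in tumour 2 and highest in tumour 4. Mmp2, gelatinase A, differed 1.56-fold, Mmp3 had a mean below 7 and was highest in tumour 1, at 7.45, and Mmp7 stayed between 5.56 and 5.73. The 4 members among the 300 thus had 4 different splits of the tumours.

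Most ranked genes of basal and myoepithelial cells were highest in tumour 2, and most were lowest in tumour 1. Krt5, a basal keratin, read 8.16, 10.37, 9.13 and 9.38 in tumours 1 to 4. Acta2, the smooth muscle actin that myoepithelial cells, pericytes and myofibroblasts share, read 10.36, 11.59, 11.05 and 10.70. Cnn1, the contractile protein calponin, read 7.20, 8.62, 7.33 and 7.25, and Mylk, the kinase that sets off smooth muscle contraction, 6.65, 8.03, 7.04 and 7.31. Tumour 2 was the highest in each of the 4, and in Cnn1 it stood alone. Lgr5, a receptor of basal stem cells that acts in Wnt signalling, read 7.21, 8.45, 7.12 and 7.88. Krt17, another basal keratin, was highest in tumour 4 (8.44, 8.50, 8.06 and 9.65). Krt14, the partner of Krt5, read 8.34, 8.63, 8.66 and 9.06, again highest in tumour 4, and was not among the 300. Trp63 (8.39, 8.94, 9.13 and 9.42) and Itga6 (11.68 to 11.84), also outside the 300, were highest in tumour 4 too. These were the 4 of 14 ranked members with tumour 4 highest, or 3 with centred arrays, against 27.6% and 28.2% of all ranked genes. Over 14 ranked members tumour 2 was highest in 9, against 18.4% of all ranked genes, and tumour 1 lowest in 11, against 25.6%. With centred arrays these were 10 members against 28.2%, and 11 against 20.2%. The mean deviation was -0.47, 0.45, -0.07 and 0.08. The 8 ranked members outside the 300 gave -0.40, 0.27, 0.08 and 0.04.

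The contractile genes also belong to the list of pericytes and smooth muscle, where Acta2, Cnn1 and Des were its 3 members among the 300. Markers more particular to pericytes were not among the 300, though their SDs were above the median of 0.134. Rgs5, a regulator of G protein signals, had an SD of 0.17, the proteoglycan gene Cspg4 of 0.19 and the receptor gene Notch3 of 0.26. Des, unlike Acta2 and Cnn1, had the pattern of the skeletal muscle genes.

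Further genes with tumour 2 on top, chosen after their values were seen, were in none of the cell type lists. Fbp1, an enzyme of glucose synthesis, read 7.55, 11.09, 8.71 and 8.75 in tumours 1 to 4. Npy, the transmitter neuropeptide Y, read 8.65, 10.85, 7.99 and 8.37, and Slc6a2, the noradrenaline transporter, 7.03, 9.04, 7.37 and 6.70. Each of these stood apart in tumour 2 by at least 1.67 from the next tumour. Wif1, a secreted Wnt inhibitor, read 8.03, 9.47, 8.43 and 7.91, and Igfbp3, a carrier of insulin-like growth factors, 8.04, 9.69, 8.80 and 8.84. Tumours 2 and 4 together were high in 10 genes, among them Meis1, a homeobox factor (8.01, 10.41, 8.01 and 9.68), and Vcan, the proteoglycan versican (8.37, 9.71, 8.89 and 10.13). Wif1 and Igfbp3 belong to the list of Wnt, TGF-beta and FGF signals, as do Sfrp4, Fgf1, Fgfr2 and H19, and these 6 of 25 ranked members were among the 300. Sfrp4, a Wnt antagonist, read 7.65, 5.83, 6.54 and 8.02, and Fgf1, a fibroblast growth factor, 8.07, 8.51, 7.61 and 6.89. The ligands Wnt2, Wnt2b and Wnt4 all had a mean below 7 and SDs of at most 0.14.

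Of 19 ranked macrophage genes 3 were among the 300, and these 3 did not all share a pattern. The general markers Adgre1, Csf1r and Cd68, for the F4/80 antigen, the CSF1 receptor and a lysosomal protein, had SDs of 0.16, 0.17 and 0.16. Retnla varied most, with the values given above, and Mrc1, the mannose receptor, read 8.69, 7.55, 8.65 and 8.66, again lowest in tumour 2. Both had the extremes of the adipocyte genes, though in Mrc1 tumours 1, 3 and 4 were nearly equal. The part of fat in these values was not tested. Arg1, arginase 1, which is used as a marker of the same state as Retnla and Mrc1, ran the other way. It read 8.70, 10.30, 9.11 and 9.23 in tumours 1 to 4 and was highest in tumour 2. Mgl2, a lectin of the same state as Mrc1, was below the minimum, at 6.97, 5.41, 6.49 and 7.21. Of the 21 measured T and NK cell genes none reached a mean of 7, and none could enter the ranking.

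Of the 6 chemokine and cytokine genes among the 300, 4 were lowest in tumour 2, but the list as a whole was mixed. Over 13 ranked list members tumour 2 was lowest in 6 and highest in 4, against 38.5% and 18.4% of all ranked genes. With centred arrays these counts were 6 and 5, against 27.7% and 28.2%. Of the 7 ranked members outside the 300, tumour 2 was lowest in 2 and highest in 3. Ccl9 read 9.35, 7.65, 8.94 and 9.85 in tumours 1 to 4, Ccl8 9.10, 7.80, 8.80 and 8.94, and Cxcl13, which draws B cells, 8.43, 7.23, 8.04 and 8.45. In these, and in Ccl7, tumour 2 lay apart below the other 3. Il33, an alarmin, ran the other way (8.28, 9.58, 8.71 and 8.67), and Ccl28, a chemokine of mucosal epithelium, was lowest in tumour 4 (8.05, 8.45, 8.52 and 7.19). The chemokine Ccl2 read 8.22, 7.42, 7.83 and 8.25 and stood outside the 300, as did Ccl3 at 7.96, 8.37, 7.69 and 7.23, and Ccl4 was dim, with a mean of 5.93.

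Acute phase and innate defence genes were diverse. Hp, haptoglobin, read 12.07, 9.52, 10.56 and 10.72 in tumours 1 to 4 and had the extremes of the adipocyte genes, whose part in it was not tested. Saa3, serum amyloid A3, read 6.73, 6.29, 7.91 and 8.46, with tumours 3 and 4 on top. Pigr, the receptor that carries antibodies into milk, read 10.74, 10.73, 10.15 and 9.05. Cfb, complement factor B, read 8.63, 7.80, 9.50 and 8.83, and Lbp, which binds lipopolysaccharide, 11.86, 11.06, 11.98 and 12.34. Slpi, a protease inhibitor, was the only 1 of these 7 with tumour 1 below the rest, at 7.75, 9.01, 8.72 and 8.72. Lcn2, the iron scavenger lipocalin 2, lay between 13.70 and 13.77, at the top of the arrays, where differences may be hard to read. Tumour 2 was lowest in 7 of 13 ranked members, against 38.5% of all ranked genes. With centred arrays the count was the same, against 27.7%.

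Interferon-stimulated genes were highest in tumour 3, which otherwise stood apart least. These genes are switched on by interferons and encode antiviral proteins. Ifit1, which binds foreign RNA, read 9.22, 9.76, 10.59 and 8.88 in tumours 1 to 4, a 3.27-fold range. Oas2, an enzyme that senses double-stranded RNA, read 8.60, 9.08, 9.92 and 8.60. Rsad2, the antiviral protein viperin, read 8.40, 8.43, 9.32 and 8.08. Tumour 3 was on top in each of them. Oasl2, of the same family as Oas2, read 9.31, 10.25, 10.64 and 9.27, whereas Ifi27l2a, whose interferon response is known from the mouse, was highest in tumour 1 (8.58, 6.94, 7.89 and 7.31). These 5 were among the 300, of 29 ranked. In 25 of the 29 tumour 3 was highest, and in 23 with centred arrays, against 37.3% and 19.6% of all ranked genes. Tumour 4 was lowest in 16 of 29, against 22.5% of all ranked genes. The mean deviation was -0.14, 0.01, 0.41 and -0.29. The 6 members below the minimum gave -0.02, -0.19, 0.51 and -0.30. Ifih1, a sensor of viral RNA, had a different order (9.76, 9.53, 9.69 and 9.01), and Ifit2 a small spread (7.21 to 7.83). None of the 8 genes of MHC class I presentation was among the 300, and their mean deviations were -0.31, 0.15, 0.32 and -0.15.

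Promoters of Ifit1 and Rsad2 are shown because they hold the core of the interferon-stimulated response element, searched as GAAA, any 2 bases, and GAAA again, here on the opposite strand and set in capitals (GRCm38.p6, RefSeq). Ifit1 lies at chr19:34640639-34640938 on the plus strand and Rsad2 at chr12:26456403-26456702 on the minus strand.
Ifit1: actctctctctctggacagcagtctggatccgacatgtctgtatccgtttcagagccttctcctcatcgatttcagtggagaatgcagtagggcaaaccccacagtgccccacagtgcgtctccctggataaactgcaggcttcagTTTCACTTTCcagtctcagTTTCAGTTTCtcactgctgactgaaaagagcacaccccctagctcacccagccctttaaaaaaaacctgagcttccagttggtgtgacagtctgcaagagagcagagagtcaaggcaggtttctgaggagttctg
Rsad2: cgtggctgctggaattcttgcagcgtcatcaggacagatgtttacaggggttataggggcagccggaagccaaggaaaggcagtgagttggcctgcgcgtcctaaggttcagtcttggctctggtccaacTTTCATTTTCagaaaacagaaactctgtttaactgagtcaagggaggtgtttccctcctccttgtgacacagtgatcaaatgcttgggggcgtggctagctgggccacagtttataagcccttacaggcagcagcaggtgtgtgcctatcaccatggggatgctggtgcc
Ifit1 held 2 matches, which began 104 and 85 bases upstream of its start, and Rsad2 held 1, 120 bases upstream. Of 25 measured interferon-stimulated genes with a promoter 14 held the core on either strand, against 3.44% of all promoters. Among the 300 genes 11 of 220 (5.0%) held it, 2 of them among the 3 list members with a promoter.

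Genes with tumour 4 on top numbered 29 (9.67%), a share of the 300 near that of all ranked genes (8.51%). Apart from Muc4 and Tnc they included Emb, the adhesion protein embigin (7.28, 8.47, 8.12 and 10.28 in tumours 1 to 4), and Ptgs2, cyclooxygenase 2 (6.65, 7.78, 6.46 and 9.15). H19, an imprinted non-coding RNA, read 8.30, 8.73, 8.76 and 10.84, and Peg3, an imprinted zinc finger gene, 8.99, 8.86, 9.22 and 10.66. Both were alike in tumours 1 to 3 and high in tumour 4, whereas Grb10, another imprinted gene among the 300, read 9.51, 8.57, 8.82 and 9.68, with tumours 1 and 4 high. Krt19, a luminal keratin, read 10.08, 10.22, 10.48 and 11.24 and was the only member of the luminal list among the 300. Over the other 16 ranked members the mean deviation lay between -0.08 and 0.06 in each tumour. Ptgs2 was the only immediate early gene of 24 ranked. Heat shock genes among the 300 numbered 3 of 21. Hspa1a, an inducible HSP70, read 7.41, 7.05, 7.01 and 8.20, Hsph1, its partner HSP105, 9.65, 8.89, 9.71 and 10.18, and Dnaja1, a co-chaperone, 7.26, 7.86, 8.38 and 8.36. Hspa1a has a near-identical copy, Hspa1b, so its probes may read both. The endoplasmic reticulum chaperone gene Hspa5 read 12.50, 12.16, 12.57 and 12.63, and Hsp90aa1 was dim and even, at 5.44 to 5.53.

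Genes with tumour 4 at the bottom numbered 25, a share of the 300 near that of all ranked genes. Foxa1, the pioneer factor of oestrogen receptor action, read 8.77, 8.82, 8.97 and 7.32 in tumours 1 to 4, and Cited1, a co-regulator of that receptor, 7.24, 7.75, 7.87 and 6.62. They were the 2 members of the hormone-sensing list among the 300, of 8 ranked. Esr1, the oestrogen receptor itself, differed little (7.98, 8.25, 8.29 and 8.18), as did Gata3, at 11.59 to 11.74. Secretory genes of the split were Pigr and Scgb2b26, given above, and Car6, a secreted carbonic anhydrase (12.45, 12.59, 11.95 and 10.93). Tumours 1 and 2 together were above tumours 3 and 4 in 9 genes, none of them in a list, among them Npl, an enzyme of sialic acid breakdown (10.20, 9.55, 7.97 and 8.33), and Bcl6, a transcriptional repressor (9.80, 9.72, 8.95 and 8.66). Of 17 ranked endothelial genes 2 were among the 300, and their median SD of 0.143 was near that of all ranked genes. The 2 were Apln, the ligand apelin (7.29, 6.77, 8.44 and 8.58), and Lyve1, a hyaluronan receptor of lymphatic vessels (7.36, 6.47, 7.19 and 8.41).

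Some of the 300 genes are neighbours on a chromosome. By RefSeq 299 of them could be placed, and 13 pairs, made of 24 genes, lay within 100 kb of each other. In 7 of the pairs both genes had the same split, among them Csn1s1 with Csn2, Csn2 with Csn1s2a, Tnni2 with Tnnt3 and Ccl7 with Ccl8. Pairs were not counted over all ranked genes, so these counts have no background and say nothing about neighbours in general. Tnnt3 and H19 also lie within 100 kb but differed in their split, with tumours 3 and 4 high for Tnnt3 and tumour 4 alone for H19. For 7 of the 300 genes a second row named the gene together with others. The second row of Ccl9 read 9.74, 7.93, 9.11 and 10.40 in tumours 1 to 4, and that of Hyal1, a hyaluronidase, also kept the order of the ranked row (r = 0.997 over the 4 tumours). For the other 5 the second row was either dim or had another order.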

How the data were processed

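Gene expression in 4 MMTV-PyVT/HdhQ111/Q111 tumours was measured on Affymetrix Mouse Exon 1.0 ST arrays. Deposited values are on the log2 scale, 1 per row and array over 23332 rows, at the core level of an mm9 probe set file per the labels. The sources used here do not give the normalization of these deposited log2 values, although for their gene analysis the authors named quantile normalization and antigenomic background correction. Rows were named from the platform annotation, and the 1019 rows with several symbols and 7317 with none were left out. Genes were ranked by SD with pandas 2.3.3 and numpy 2.4.6 in Python 3.11.15. Plots used matplotlib 3.10.9.

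The genes and the 34 lists were chosen with earlier results of these data known. Named were the 20 genes of largest SD, up to 5 members of largest SD and the first 3 measured members of each list with at least 3 genes among the 300, the genes at rank 300 and 301, and Htt. Others are examples chosen after their values were seen. The ranking was checked on simulated data. Alternatives were centring, quantile normalization, another minimum signal, other measures of spread, the mean of a gene's rows, and leaving out each tumour. Promoters came from RefSeq (GRCm38.p6).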

Additional observations from a re-analysis of the deposited data

Results flagged for a closer look

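Of 101 named genes and 14 list means, 2 genes and 1 list mean had 1 tumour whose gap to the nearest other, divided by the whole range, was above Dixon's 95% critical value for 4 samples. In all 3 this was tumour 2. Cnn1, calponin, read 8.62 there against 7.20 to 7.33 in the other tumours, and Mrc1, the mannose receptor, read 7.55 against 8.65 to 8.69. The mean deviation of the acute phase and innate defence genes was -0.298 in tumour 2 against 0.0675 to 0.128 in the others. Chance flags about 1 in 20 groups, and 17 of the 300 genes (5.67%) and 408 of all ranked genes (4.34%) passed the same limit. The limit serves here as a flag and not as a test, since many of the named genes were chosen by their spread over the same tumours.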

How the results depend on the processing

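Of the 300 genes, 280 remained with each array centred on its median, 281 after quantile normalization, 256 when the SD was divided by that of genes of like signal, 298 with the mean of all rows of a gene, 203 without a minimum signal, 181 with a minimum of 8 and 199 by the smallest SD over any 3 tumours. Without 1 tumour 204 to 268 remained, the lowest number without tumour 2 and the highest without tumour 3.

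Without a minimum signal the 300 held 1 fibroblast gene and 0 heat shock genes. With a minimum of 8 they held 9 skeletal muscle genes, 2 metalloproteinase genes, 1 of pericytes and smooth muscle and 1 heat shock gene. By the smallest SD over any 3 tumours they held 3 chemokine, 4 acute phase and 1 heat shock genes. Leaving out each tumour in turn gave 12 to 17 skeletal muscle genes, 12 to 15 of adipocytes, 6 to 8 of milk, 3 to 7 basal, 2 to 4 fibroblast, 1 to 4 matrix, 1 to 4 metalloproteinase, 1 to 3 pericyte, 1 to 4 macrophage, 1 to 9 interferon-stimulated, 1 to 8 chemokine, 4 to 6 acute phase, 1 to 2 heat shock and 3 to 7 Wnt, TGF-beta and FGF genes. Without tumour 2 there were 9 interferon-stimulated genes, 3 basal, 1 metalloproteinase, 1 pericyte, 1 macrophage, 1 chemokine, 4 acute phase and 3 Wnt, TGF-beta and FGF genes, without tumour 3 there was 1 interferon-stimulated gene, and without tumour 4 there were 1 matrix, 4 acute phase and 1 heat shock genes. The other 133 of 154 list counts stayed within 1.5 times the value given, and the cause of these shifts was not tested. No paired analysis was possible because only 1 genotype was used and its values come from no test.

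An SD over 4 tumours is imprecise, the 300 genes were dimmer than all ranked genes, and signals near 13.8 leave no room for a higher value. Splits with centred arrays were added after the data were seen.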
